A study of Mus musculus with 20 samples.

Results

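The genes described here encode the proteasome, its activators and the factors that assemble it. They are 47 of the 55891 genes in the deposited table, found by matching Ensembl identifiers to a fixed set of symbols: 17 subunits of the 20S core particle (Psma1 to Psma7 and Psmb1 to Psmb10), 18 subunits of the 19S cap, 4 activators (Psme1 to Psme4), the maturation factor Pomp and 7 assembly chaperones. All 47 were abundant enough to be tested, so no member was lost to a filter on low counts. The RNA came from primary tubular epithelial cells grown from mouse kidneys (strain B6.129-Ptprz1tm1Nmo, which carries a targeted allele of the receptor phosphatase gene Ptprz1) and cultured in serum and growth factors. All 20 libraries share that strain and culture, and the 4 groups of 5 libraries are het control, het LPS+IFNγ, KO control and KO LPS+IFNγ. By the design text het cells stand for cells with Ptprz1, although its counts here cannot show that, control cells were untreated, and stimulated cells received 100 ng/mL LPS and 10 ng/mL IFNγ for 24 h. The comparisons ask how inflammatory stimulation changes these cells and whether loss of Ptprz1 changes that response.

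The proteasome degrades proteins tagged with ubiquitin. Its core is a stack of rings: alpha subunits form the outer rings and gate the entrance, and beta subunits form the inner rings, where Psmb6, Psmb7 and Psmb5 carry the caspase-like, trypsin-like and chymotrypsin-like active sites. Interferon-gamma is known to induce alternative catalytic subunits, Psmb9, Psmb10 and Psmb8, which enter newly built cores in place of Psmb6, Psmb7 and Psmb5 and form the immunoproteasome, a form known for making peptides for MHC class I molecules. Leukocytes carry these subunits without stimulation, whereas most epithelia carry little of them at rest. Promoters of interferon-responsive genes often hold a gamma-activated site (GAS) or an interferon-stimulated response element (ISRE), and the standard subunits are known targets of Nfe2l1, which binds antioxidant response elements.

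Promoter sequences are shown for 2 catalytic pairs, because the induced and the replaced member of a pair behaved differently in the values that follow. The pair of Psmb10 and Psmb7 is not shown, as no promoter window was found for Psmb7. The window of Psmb10 held none of the motifs searched here, and that of Psmb9 held neither a GAS nor an ISRE core. Each run is the 150 bases before the gene start in RefSeq (GRCm38.p6), read 5′ to 3′ on the gene's strand. Psmb8 lies at chr17:34198045-34198194 (plus strand), Psmb9 at chr17:34187331-34187480 (minus strand), Psmb5 at chr14:54617996-54618145 (minus strand) and Psmb6 at chr11:70525207-70525356 (plus strand). Capitals mark a GAS (TTCNNNGAA) in Psmb8 and an antioxidant response core (TGANNNNGC) in the other 3. After the gene start, outside the runs shown, Psmb8 also holds an antioxidant response core at +24 and Psmb5 a second at +42.
Psmb8: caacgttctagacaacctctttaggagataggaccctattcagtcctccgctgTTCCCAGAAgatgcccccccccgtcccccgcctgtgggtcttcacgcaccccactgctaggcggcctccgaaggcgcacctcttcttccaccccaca
Psmb9: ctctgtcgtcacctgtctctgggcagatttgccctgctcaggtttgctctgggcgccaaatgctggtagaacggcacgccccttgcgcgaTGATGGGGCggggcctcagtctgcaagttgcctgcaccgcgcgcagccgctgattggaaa
Psmb5: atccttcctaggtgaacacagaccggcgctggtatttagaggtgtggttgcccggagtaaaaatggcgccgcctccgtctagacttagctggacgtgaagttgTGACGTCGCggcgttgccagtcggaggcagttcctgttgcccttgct
Psmb6: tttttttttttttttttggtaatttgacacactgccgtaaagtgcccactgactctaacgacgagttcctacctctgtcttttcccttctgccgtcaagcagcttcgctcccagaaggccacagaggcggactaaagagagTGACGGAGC
Both strands were searched for these letters in the 300-base promoter window of each gene (250 bases before to 50 after the start), and a window was found for 40 of the 47 members. The ISRE core (TTTC, any 2 bases, TTTC) was in windows of 5 members (Psmb3, Psmd4, Psmd9, Psme1 and Psmg4) and in 3.44% of all 32851 promoters. A GAS was in 3 members (Psmb8, Psmd2 and Psmg1) and in 8.3% of all promoters, and the antioxidant response core was in 23 members and in 41.3% of all promoters. A match is a description of letters, not a binding site. The following sites, with the motif letters of either strand in capitals, are shown for members that rose with stimulation in the 16 libraries (Psmb8, Psmd2, Psmd4, Psme1 and Psmg4) and for those that did not pass (Psmb3, Psmg1 and Psmd9, the last at 0.047 ± 0.083 on the log2 scale). They are all members that hold an ISRE core or a GAS.
Psmb3, ISRE core, chr11:97703261-97703290, plus strand: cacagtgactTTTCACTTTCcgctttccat
Psmb8, GAS, chr17:34198088-34198116, plus strand: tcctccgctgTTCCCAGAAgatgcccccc
Psmd2, GAS, chr16:20651646-20651674, plus strand: gcgcgtggccTTCTGGGAAaaggggcggt
Psmd4, ISRE core, chr3:95042675-95042704, minus strand: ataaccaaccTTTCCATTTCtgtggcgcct
Psmd9, ISRE core, chr5:123228021-123228050, plus strand: gggacagaatGAAAAAGAAAggaatgaaca
Psme1, ISRE core, chr14:55578493-55578522, plus strand: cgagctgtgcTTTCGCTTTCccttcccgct
Psmg1, GAS, chr16:95991185-95991210, minus strand: actcatgTTCTCTGAAtccgcttgca
Psmg4, ISRE core, chr13:34162969-34162998, plus strand: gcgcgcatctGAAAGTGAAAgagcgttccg

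4 libraries went against their treatment labels, and they bear on every result. In het control replicate 5 and KO control replicate 4 the interferon target Gbp2 reached 482 and 1492 CPM (the count scaled to a common library size after TMM adjustment), where the remaining 8 control libraries had 9.21 to 27.02 CPM. In het LPS+IFNγ replicate 5 and KO LPS+IFNγ replicate 4 the level was 12.88 and 13.02 CPM, where the remaining 8 stimulated libraries had 3399.9 to 11526 CPM. These are the libraries of animals 4 and 8, and Nos2 (inducible nitric oxide synthase) separated the same 4. No library was relabelled. Results are given for all 20 libraries as labelled and for the 16 libraries without these 4. Because the 4 were recognised from the outcome itself, the second set describes those 16 libraries and is not independent evidence. Animals 5 and 7 are listed under both genotypes, and Ptprz1 was at 0 to 4 counts per het library and 0 to 7 per KO library, which is too few to check the genotype labels. Totals ran from 12899528 to 20411411 counts per library with a median of 17431039. The labels do not say that the libraries of a group are separate cultures beyond the animal number, and the p-values therefore reflect only how these libraries vary, which may be partly technical. In cultured populations fewer cells expressing a gene and less RNA per cell cannot be told apart.

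The tubular markers Pax8 (134 to 388 CPM) and Cdh16 (22.9 to 791 CPM) were present in every library, whereas Slc34a1, a phosphate transporter of the proximal tubule, was at 0 to 0.769 CPM. The summed level of 12 leukocyte markers was 5.37 to 336 CPM. It was 6.23 to 336 CPM in het control, 6.52 to 230 CPM in het LPS+IFNγ, 11.9 to 19.3 CPM in KO control and 5.37 to 21.2 CPM in KO LPS+IFNγ. The T-cell marker Cd3e was at 0 in all 20 libraries and the pan-leukocyte marker Ptprc reached at most 8.68 CPM. With stimulation 1 of 10 tested leukocyte markers fell and 0 rose in the 16 libraries, beside 4.88% of all genes called lower and 10.1% called higher. Summed fibroblast markers ran from 33.4 to 14706 CPM, beside 454 to 2048 CPM for the sum of 10 tubular markers. The fibroblast sum had the higher median in het control (978 against 749 CPM), KO control (1348 against 777) and KO LPS+IFNγ (1202 against 739). In het LPS+IFNγ the medians were 911 and 918 CPM. The part of these marker lists in the results was not tested.

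The largest responses to stimulation were those of the induced catalytic subunits and of the PA28 activator genes Psme1 and Psme2, and the subunits that the induced ones replace differed little. In all 20 libraries as labelled, 8 members rose and 0 fell over both genotypes (edgeR quasi-likelihood test, Benjamini-Hochberg adjusted over 14568 genes, called under 0.05), against 4.54% of all genes called higher and 0.481% called lower. They were the catalytic Psmb10, the activators Psme1 and Psme2, the alpha subunits Psma5 and Psma6, the lid subunit Psmd11, the maturation factor Pomp and the chaperone Psmg4. Leaving out 1 library moved the count between 5 and 20: it was 20 without het LPS+IFNγ replicate 5 (7.58% of all genes called higher), 18 without KO control replicate 4 (6.08%) and 13 without KO LPS+IFNγ replicate 4 (6.46%). It was 5 without any 1 of het control replicates 2, 3 and 4, KO control replicates 1, 2 and 3 and KO LPS+IFNγ replicates 2 and 5. The share of all genes is not given for these fits. Their count of 5 therefore does not show whether members changed more than all genes did. In the 16 libraries 25 members rose and 0 fell, against 10.1% of 14630 genes called higher and 4.88% called lower. The median log2 fold change of the 47 members was 0.19 in 20 libraries and 0.25 in 16, beside -0.013 and -0.018 over all genes tested. In both sets 43 of the 47 fold changes were positive. With limma-voom 0 members were called in 20 libraries (0% of all genes). With the animal as a block, 0 members were called in 20 libraries (0% of all genes) and 33 in 16 libraries (17.3% of all genes called higher). Here and below, that block joins a het and a KO library for each of animals 5 and 7, which are listed under both genotypes. Without the libraries of animals 5 and 7, 0 members were called in the otherwise complete set (0% of all genes), and 20 rose when animals 4 and 8 were also left out (6.67% of all genes called higher).

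Within a genotype the 20 libraries gave 0 member calls by edgeR, in het (0% of all genes) and in KO (0% of all genes). At an unadjusted p under 0.05 there were 19 of 47 members in het and 11 in KO, beside 13.6% and 8.97% of all genes tested. DESeq2 called 4 in het (2.99% of all genes called higher) and 1 in KO (0.755%) and gave no p for Psmb8, Psmb9 and Psmb10. By limma-voom 0 were called in both, with no share of all genes given. In the 16 libraries 15 members rose in het, against 5.67% of genes called higher and 1.48% called lower, and 13 rose in KO, against 4.81% and 0.95%. Of these, 11 were the same genes and none moved in opposite directions. With the animal as a block the 16 libraries gave 22 higher in het (10.7% of all genes) and 21 in KO (8.39%). All 8 stimulated libraries lay above all 8 control libraries for 16 members, against 4.7% of all genes, and below them for 0 members, against 0.82%. With 20 libraries the groups overlapped for every member.

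**Figure D1:**
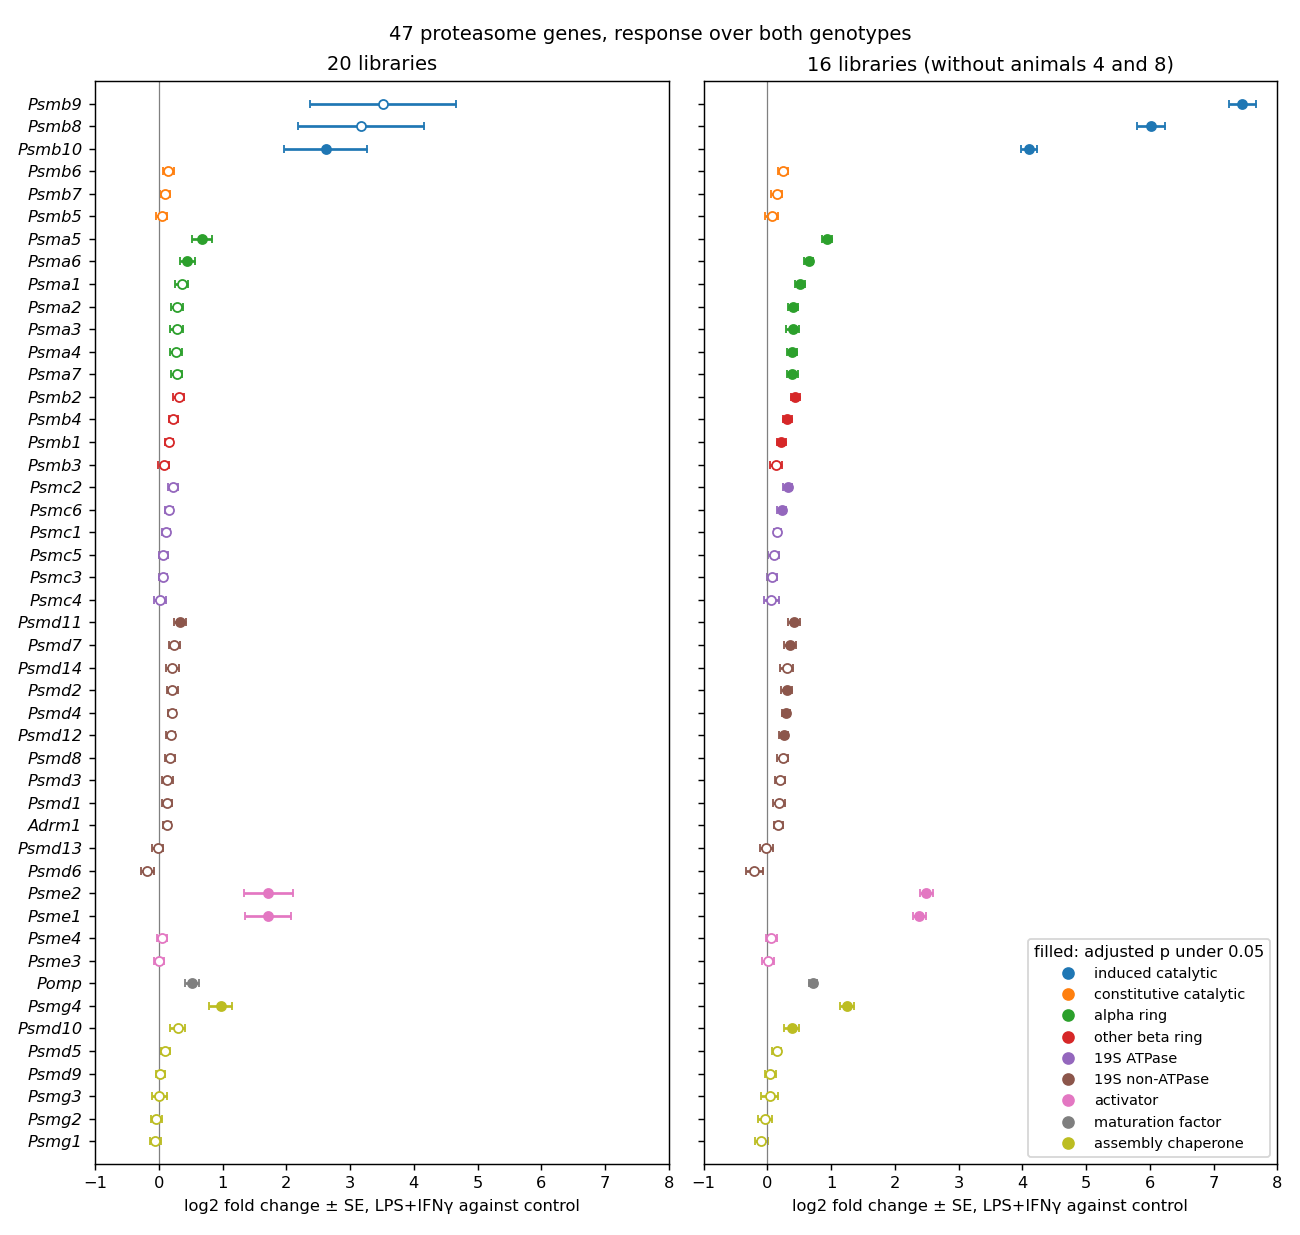
Log2 fold change ± SE of each of the 47 members, stimulated against control over both genotypes, in 20 libraries (left) and in 16 (right), ordered by role. Filled points have an adjusted p under 0.05: 8 on the left and 25 on the right. Psmb8, Psmb9 and Psmb10 lie far to the right of the other members, and Psmb5, Psmb6 and Psmb7 lie near 0.

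The 3 catalytic pairs showed the contrast in single libraries. Psmb8 (ENSMUSG00000024338), the induced chymotrypsin-like subunit, was at 5.01, 3.57, 4.92, 3.38 and 89.2 CPM in het control replicates 1 to 5, and at 345, 330, 334, 303 and 2.29 CPM in het LPS+IFNγ. In KO control it was at 10.4, 7.48, 3.39, 191 and 4.67 CPM, and in KO LPS+IFNγ at 393, 353, 310, 6.28 and 362 CPM. Apart from the 4 libraries of animals 4 and 8, the groups were separated by a wide gap, and the control libraries of those animals lay between these levels rather than at the stimulated one. Psmb5 (ENSMUSG00000022193), whose place Psmb8 takes, was at 130, 142, 114, 118 and 125 CPM in het control and at 109, 143, 151, 117 and 120 CPM in het LPS+IFNγ. KO control libraries had 137, 144, 135, 137 and 90.8 CPM, and in KO LPS+IFNγ at 145, 153, 120, 131 and 121 CPM. The stimulated and control ranges of Psmb5 overlapped in both genotypes, and in KO cells they shared 120 to 144 CPM.

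Psmb9 (ENSMUSG00000096727), the induced partner at the caspase-like position, was nearly silent at rest. It was at 0.671, 0.255, 0.711, 1.23 and 31.1 CPM in het control and at 109, 129, 112, 134 and 0.313 CPM in het LPS+IFNγ. The KO control libraries had 0.991, 0.542, 0.702, 59.2 and 0.803 CPM, and the KO LPS+IFNγ libraries 133, 138, 131, 0.648 and 168 CPM. Its resting level rested on 4 to 24 counts in each of the 8 control libraries outside animals 4 and 8. Psmb6 (ENSMUSG00000018286), which Psmb9 replaces, was at 87.9, 91.4, 102, 94.5 and 98.2 CPM in het control and at 108, 109, 111, 114 and 78.5 CPM in het LPS+IFNγ. The KO control libraries stood at 93.8, 99.8, 92.5, 108 and 70.9 CPM, and in KO LPS+IFNγ at 125, 109, 102, 93.0 and 88.3 CPM. In het cells the 4 stimulated libraries outside animal 4 lay above all 5 controls, while in KO cells the 2 groups overlapped.

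Psmb10 (ENSMUSG00000031897), the induced trypsin-like subunit, had the highest resting level of the induced subunits. It was at 11.9, 10.3, 13.8, 10.1 and 57.0 CPM in het control and at 139, 189, 179, 176 and 9.44 CPM in het LPS+IFNγ. In KO cells the control libraries had 11.6, 11.98, 10.3, 106 and 6.79 CPM, and in KO LPS+IFNγ at 209, 212, 188, 10.7 and 200 CPM. The separation was again complete outside the 4 libraries. Psmb7 (ENSMUSG00000026750), which Psmb10 replaces, was at 116, 118, 116, 109 and 121 CPM in het control and at 133, 133, 136, 126 and 111 CPM in het LPS+IFNγ. In KO control it was at 120, 136, 107, 136 and 86.1 CPM, and in KO LPS+IFNγ at 137, 124, 119, 127 and 98.4 CPM. As for Psmb6, 4 het stimulated libraries lay above the het controls, and the KO groups overlapped.

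**Figure D2:**
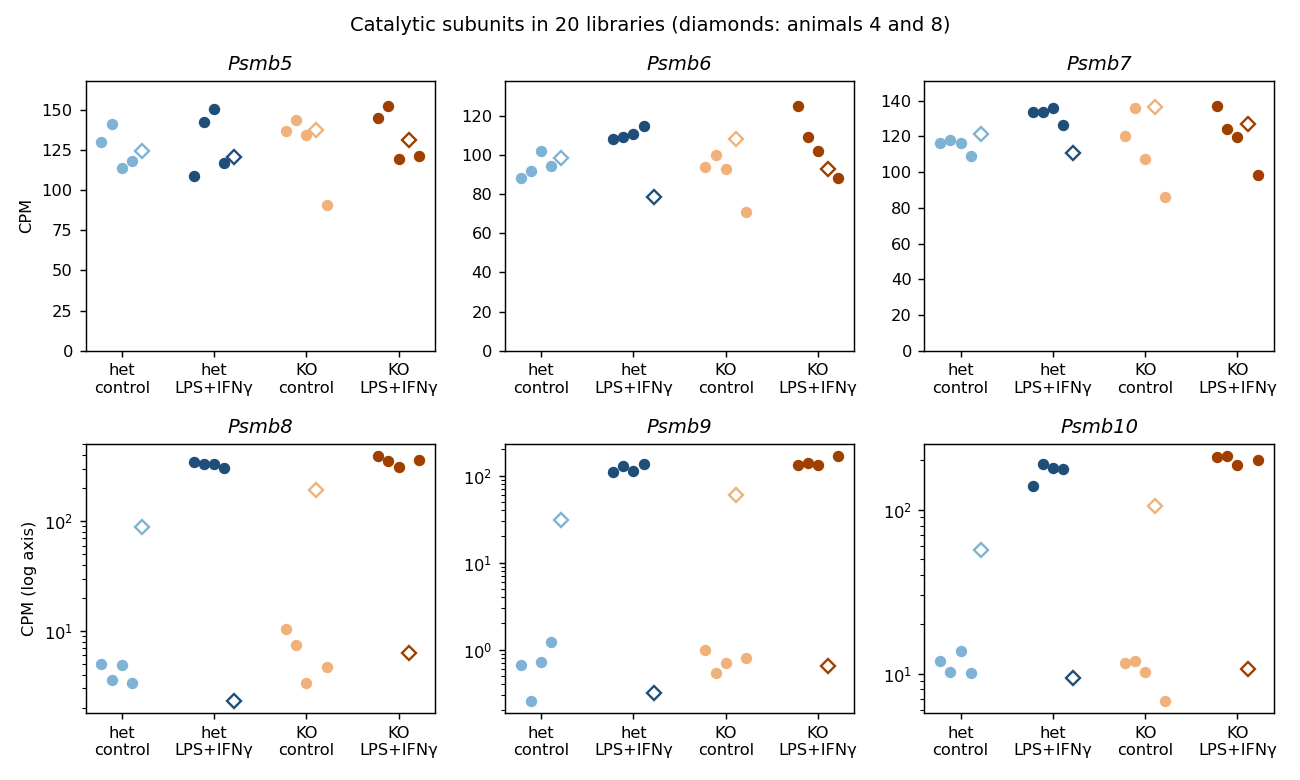
CPM of the 3 replaced (top, linear axis from 0) and the 3 induced (bottom, log axis) catalytic subunits in each of the 20 libraries by group, with open diamonds for animals 4 and 8. The diamonds of the induced subunits lie high in control and low in LPS+IFNγ, and the filled points of the groups do not overlap.

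In the fit of 20 libraries the log2 fold change over both genotypes was 2.62 ± 0.65 (SE) for Psmb10, with an adjusted p of 0.0253, a call lost on leaving out any 1 of 8 libraries (adjusted p up to 0.0597). Psmb8 at 3.17 ± 0.99 and Psmb9 at 3.52 ± 1.15 did not pass, with adjusted p of 0.0736 and 0.0880. Each of these passed when any one of the 4 libraries of animals 4 and 8 was left out, with adjusted p of 0.00766 to 0.0400 for Psmb8 and 0.00726 to 0.0486 for Psmb9. In the 16 libraries Psmb9 rose by 7.45 ± 0.22 (175-fold), Psmb8 by 6.02 ± 0.22 (64.9-fold) and Psmb10 by 4.10 ± 0.13 (17.1-fold). Psmb5 had 0.066 ± 0.11, Psmb6 0.24 ± 0.082 and Psmb7 0.15 ± 0.089 in the same fit, and none of these passed (adjusted p of 0.739, 0.0615 and 0.307). With the animal as a block Psmb6 (0.24 ± 0.054, adjusted p = 0.00970) and Psmb7 (0.15 ± 0.048, adjusted p = 0.0399) did pass as higher, and Psmb5 did not (adjusted p = 0.370). No replaced subunit was called lower in any fit.

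The log2 ratio of the induced to the replaced gene within a library does not depend on how libraries are scaled. In 20 libraries the ratio of Psmb8 to Psmb5 was -4.02 ± 2.00 (SD, n = 5) in het control and -0.061 ± 3.16 in het LPS+IFNγ, and -3.41 ± 2.25 and 0.24 ± 2.59 in KO. The difference was 3.96 in het and 3.66 in KO. It was 4.59 and 4.57 for Psmb9 to Psmb6, and 2.45 and 2.75 for Psmb10 to Psmb7. Each of the 6 differences had an adjusted p of 0.0476 (exact two-sided permutation test over 252 arrangements, adjusted over the 6). These calls were at the edge: they ended with a pseudocount of 0.1 counts (adjusted p = 0.0556), without animals 5 and 7 (0.143) and on leaving out any 1 library outside animals 4 and 8. An exact sign-flip permutation test paired within animals gave 0.25, in a design of 4 pairs per genotype that cannot go below p = 0.125. In the 16 libraries the group SDs were 0.128 to 0.861 and the differences were 6.25 and 5.78, 7.28 and 7.27, and 3.68 and 4.24 in het and KO. Every one then had p = 0.0286, the smallest that an exact permutation of 4 against 4 allows, so those p-values say nothing about which pair changed most.

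**Figure D3:**
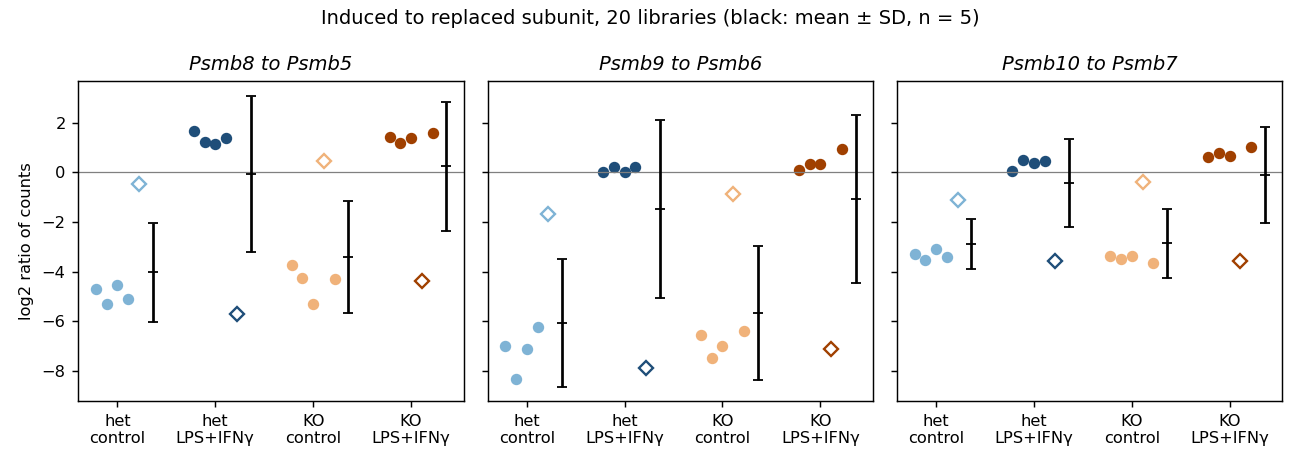
Log2 ratio of the counts of the induced to the replaced subunit in each library by group, with the mean and SD of all 5 libraries in black and open diamonds for animals 4 and 8. Stimulated libraries outside those animals lie at or above 0 and control libraries between -8.32 and -3.08.

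Levels of different genes can be compared only per length. Dividing CPM by the length of the principal transcript, an approximation, put Psmb8 at 3.29 ± 1.504 CPM per kilobase (SD, n = 8) in the control libraries of the 16 and at 210 ± 17.7 in the stimulated ones. Psmb9 went from 0.546 ± 0.214 to 97.5 ± 13.4 and Psmb10 from 8.28 ± 1.56 to 142 ± 17.7. Psmb5 was at 140 ± 19.8 and 147 ± 19.2, Psmb6 at 115 ± 11.8 and 136 ± 13.1, and Psmb7 at 97.9 ± 12.2 and 109 ± 11.02 CPM per kilobase. The 14 core genes other than the induced ones had means of 40.4 to 140 CPM per kilobase at rest and 53.2 to 173 after stimulation, so Psmb8 stood below all of them at rest and above all of them after it. Psmb9 after stimulation (80.9 to 124 CPM per kilobase) overlapped with Psmb6 (111 to 157). As a share of its pair per length, Psmb8 had a median of 1.82% in het control and 2.78% in KO control, and of 57.5% and 59.4% in the stimulated groups. The medians for Psmb9 were 0.430% and 0.532% at rest and 39.2% and 43.0% after stimulation, and for Psmb10 7.97% and 7.53%, and 54.5% and 59.2%. These are shares of RNA and not of assembled particles.

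**Figure D4:**
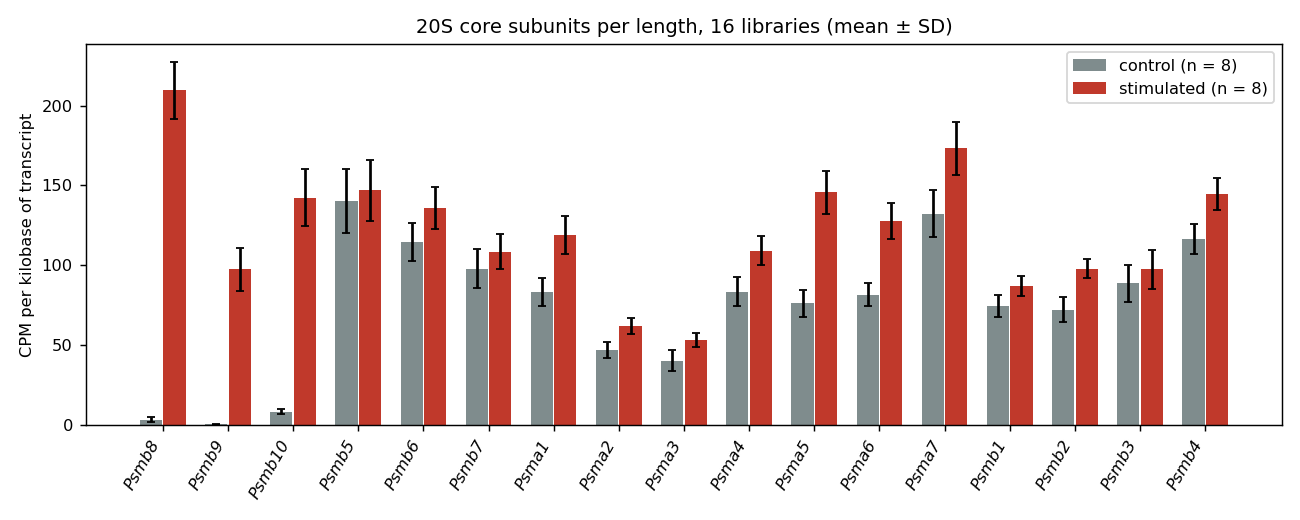
CPM per kilobase of transcript of the 17 core genes in the 16 libraries, as mean ± SD of 8 control (grey) and 8 stimulated (red) libraries. Psmb8, Psmb9 and Psmb10 have means of 0.546 to 8.28 at rest and of 97.5 to 210 after stimulation, where the other 14 have 53.2 to 173.

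The alpha ring rose by less than the induced catalytic subunits. All 7 alpha genes were called higher in the 16 libraries, with a median log2 fold change of 0.40 and a range of 0.39 to 0.94. In 20 libraries 2 of 7 passed. Psma5 was at 97.3, 94.9, 102, 87.6 and 127 CPM in het control and at 173, 186, 187, 165 and 88.1 CPM in het LPS+IFNγ. In KO it was at 100, 105, 95.6, 142 and 71.7 CPM at rest and at 213, 184, 176, 99.2 and 160 CPM after stimulation. The libraries of animals 4 and 8 stood opposite to the rest, and the other 16 did not overlap. Psma5 had the largest change of the ring, 0.67 ± 0.15 in 20 libraries (adjusted p = 0.0175) and 0.94 ± 0.085 in 16. Psma6 followed with 0.45 ± 0.12 (adjusted p = 0.0342) and 0.65 ± 0.072. Psma6 lost its call in 20 libraries on leaving out any 1 library outside animals 4 and 8, with adjusted p up to 0.0844. Psma1 (0.51 ± 0.081), Psma2 (0.40 ± 0.080) and Psma7 (0.39 ± 0.086) passed in the 16 libraries and did not pass in the fit of all 20 (adjusted p of 0.0507, 0.0902 and 0.0804). Within the genotypes of the 16 libraries 4 of 7 passed in het and 4 of 7 in KO, and 7 of 7 in each with the animal as a block.

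Of the 4 beta subunits without an active site, which complete the inner rings, 0 passed in 20 libraries by edgeR. At an unadjusted p under 0.05 there were 3, beside 19% of all genes. In the 16 libraries 3 rose. Psmb2 rose by 0.44 ± 0.072, Psmb4 by 0.31 ± 0.068 and Psmb1 by 0.22 ± 0.071, while Psmb3 had 0.14 ± 0.099 with an adjusted p of 0.410. Psmb1 sat at the threshold (adjusted p = 0.0494) and lost its call in 15 of 20 alternative analyses of the 16 libraries. Psmb3, with an ISRE core shown above, was among the members whose groups overlapped.

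The 19S cap, which recognises ubiquitin chains and unfolds substrates, had smaller fold changes. Of the 6 ATPases that thread the protein into the core, 0 passed in 20 libraries, with 2 at an unadjusted p under 0.05 (19% of all genes). In the 16 libraries 2 rose, Psmc2 by 0.32 ± 0.070 and Psmc6 by 0.23 ± 0.067. Psmc1 (0.16 ± 0.059), Psmc5 (0.10 ± 0.084) and Psmc3 (0.076 ± 0.076) did not pass. The Psmc6 call was lost in 12 of the 20 alternatives. Of the 12 other cap genes 1 rose in 20 libraries, the lid subunit Psmd11, and 5 rose in 16: Psmd11, Psmd4, Psmd7, Psmd12 and Psmd2. With the animal as a block 10 of 12 rose.

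Psmd11 was at 137, 142, 129, 132 and 146 CPM in het control and at 258, 175, 173, 170 and 129 CPM in het LPS+IFNγ. KO control libraries had 149, 148, 138, 149 and 135 CPM, and in KO LPS+IFNγ at 194, 178, 154, 150 and 180 CPM. Het LPS+IFNγ replicate 1 stood above the rest, and the 16 libraries did not overlap. Its log2 fold change was 0.33 ± 0.092 in 20 libraries (adjusted p = 0.0459) and 0.42 ± 0.088 in 16, and the first call was lost on leaving out any 1 of 17 libraries, including het LPS+IFNγ replicate 1 (adjusted p = 0.0567) and KO LPS+IFNγ replicate 2 (0.105, the highest). Among the 16 libraries the ubiquitin receptor Psmd4 rose by 0.29 ± 0.058, Psmd7 by 0.35 ± 0.091, Psmd12 by 0.25 ± 0.071 and Psmd2, the base scaffold, by 0.30 ± 0.086. Psmd2 lost its call in 7 of the 20 alternatives and Psmd12 in 6. Psmd6, named after its values were seen, had the lowest fold change of the 47, -0.20 ± 0.13 with an adjusted p of 0.337.

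Activators split by kind. Psme1 (ENSMUSG00000022216) and Psme2 (ENSMUSG00000079197) encode the alpha and beta subunits of the interferon-responsive PA28 cap, and both rose. Psme1 was at 65.4, 49.7, 52.3, 56.1 and 105 CPM in het control and at 331, 248, 234, 310 and 46.4 CPM in het LPS+IFNγ. The KO control libraries stood at 56.7, 49.4, 44.6, 178 and 44.3 CPM, and in KO LPS+IFNγ at 285, 253, 245, 54.7 and 280 CPM. All 16 libraries outside animals 4 and 8 separated, with no control above 65.4 and no stimulated library below 234 CPM. Psme2 was at 51.5, 49.96, 57.2, 49.0 and 121 CPM in het control and at 248, 287, 297, 270 and 46.4 CPM in het LPS+IFNγ. In KO cells the control libraries had 60.1, 57.0, 44.7, 202 and 37.1 CPM, and in KO LPS+IFNγ at 336, 300, 280, 59.1 and 270 CPM. Its 16 libraries outside animals 4 and 8 separated as those of Psme1 did. Psme2 has a close copy, Psme2b, with which reads could have been shared.

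The log2 fold change was 1.71 ± 0.36 for Psme1 (adjusted p = 0.0131) and 1.72 ± 0.39 for Psme2 (adjusted p = 0.0162) in 20 libraries, and 2.39 ± 0.096 and 2.49 ± 0.10 in 16. Both calls held on leaving out any 1 library. Psme3 (ENSMUSG00000078652), the nuclear PA28 gamma, did not separate. It was at 113, 100, 97.0, 118 and 110 CPM in het control and at 84.8, 101, 111, 132 and 105 CPM in het LPS+IFNγ. In KO control it was at 117, 105, 91.4, 119 and 87.6 CPM, and in KO LPS+IFNγ at 112, 96.1, 99.1, 123 and 96.0 CPM. The ranges lay on top of each other, and the fold change was 0.0047 ± 0.094 in 16 libraries (adjusted p = 0.983), with a sign that depended on the scaling.

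Psme4 (ENSMUSG00000040850), which encodes the activator PA200, was at 259, 210, 223, 230 and 254 CPM in het control and at 285, 221, 246, 233 and 251 CPM in het LPS+IFNγ. KO control libraries had 234, 228, 187, 235 and 182 CPM, and in KO LPS+IFNγ at 234, 199, 233, 234 and 180 CPM. The groups overlapped, with a fold change of 0.060 ± 0.088 in 16 libraries (adjusted p = 0.706).

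**Figure D5:**
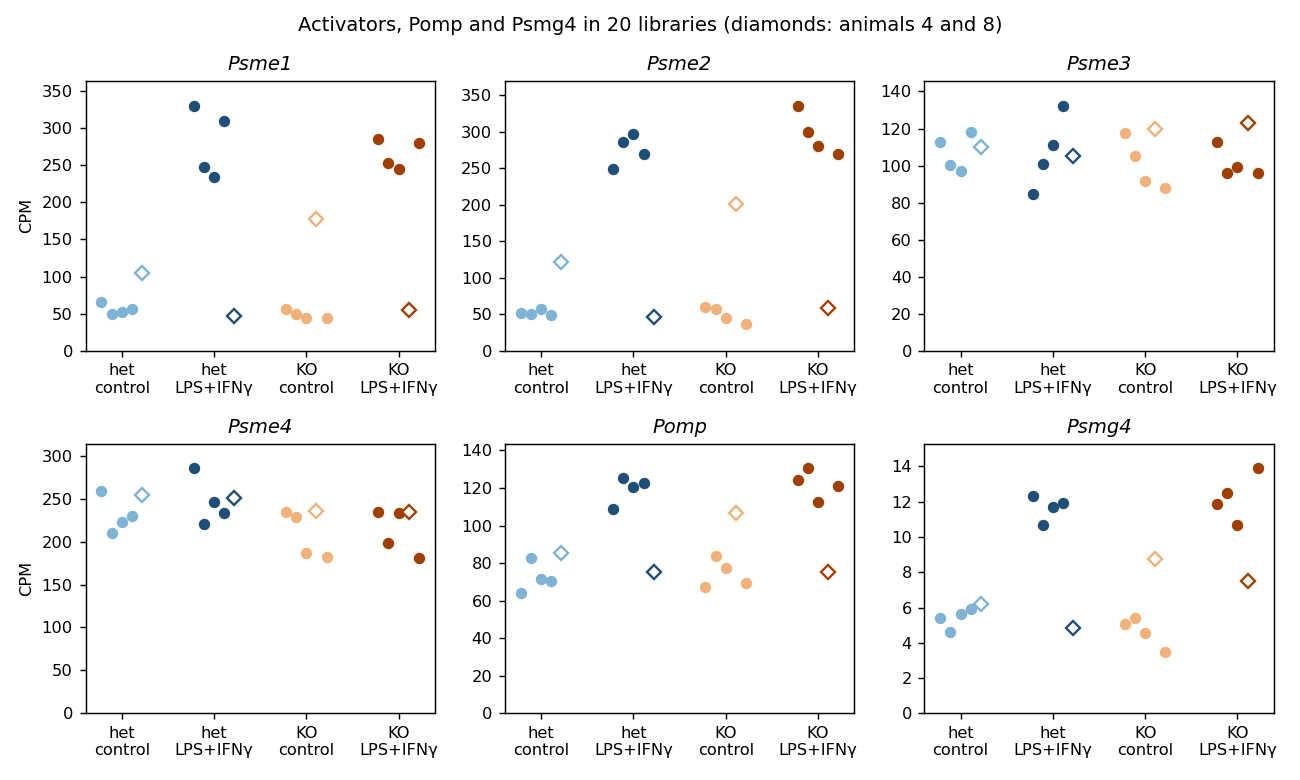
CPM of the 4 activators, Pomp and Psmg4 in each of the 20 libraries by group, on linear axes from 0, with open diamonds for animals 4 and 8. Psme1 and Psme2 lie at 234 to 336 CPM in the stimulated libraries outside those animals and at 37.1 to 65.4 CPM in the controls, while Psme3 and Psme4 overlap.

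Assembly factors also split. Pomp (ENSMUSG00000029649), the maturation factor that helps build new cores and is degraded by them, was at 64.2, 82.6, 71.7, 70.4 and 85.6 CPM in het control and at 109, 125, 121, 123 and 75.2 CPM in het LPS+IFNγ. The KO control libraries stood at 67.5, 84.0, 77.6, 107 and 69.4 CPM, and in KO LPS+IFNγ at 125, 131, 113, 75.4 and 121 CPM. The 16 libraries separated between 84.0 and 109 CPM, and the controls of animals 4 and 8 (85.6 and 107) fell in that gap. Pomp rose by 0.52 ± 0.12 in 20 libraries (adjusted p = 0.0159) and by 0.72 ± 0.069 in 16.

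Of the 7 chaperones 1 rose in 20 libraries and 2 in 16. Psmg4, a partner of Psmg3 in building the alpha ring, rose by 0.97 ± 0.18 (adjusted p = 0.0105) and 1.25 ± 0.11. It was at 5.41, 4.59, 5.63, 5.89 and 6.18 CPM in het control and at 12.3, 10.7, 11.7, 11.9 and 4.85 CPM in het LPS+IFNγ. In KO cells the control libraries had 5.07, 5.42, 4.56, 8.75 and 3.50 CPM, and in KO LPS+IFNγ at 11.9, 12.5, 10.7, 7.51 and 13.9 CPM. The separation was complete outside animals 4 and 8. Its partner Psmg3 did not pass, with 0.038 ± 0.13 in 16 libraries (adjusted p = 0.890, named after its values were seen). Psmd10, a chaperone of the 19S base, rose by 0.38 ± 0.12 in 16 libraries (adjusted p = 0.0434), a call lost in 14 of the 20 alternatives. The base chaperone Psmd5 (0.15 ± 0.069) and the alpha-ring chaperone Psmg1 (-0.092 ± 0.10) did not pass.

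No member passed the test between KO and het cells. In control cells 0 were called in 20 libraries (0% of all genes; edgeR), 1 reached an unadjusted p under 0.05 (3.43% of all genes did), and DESeq2 and limma-voom called 0. In stimulated cells 0 were called (0% of all genes), 0 at an unadjusted p under 0.05 (2.51% of all genes were). For the difference between the responses 0 were called (0% of all genes), again with 0 at an unadjusted p under 0.05 (0.947% of all genes were). DESeq2 and limma-voom called 0 in both, and no share of all genes is given for their calls between genotypes. With 16 libraries each of the 3 comparisons gave 0 calls (0% of all genes in each). At an unadjusted p under 0.05 there were 2, 0 and 0 members, beside 5.29%, 5.38% and 1.53% of all genes.

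The lowest p in control cells belonged to Psmg1, -0.26 ± 0.12 in 20 libraries (adjusted p = 0.999), followed by Psme4 (-0.14 ± 0.10) and Psmg2 (-0.16 ± 0.13). In stimulated cells the lowest p belonged to Psme4 (-0.19 ± 0.10), Psmd10 (-0.24 ± 0.17) and Psmd5 (-0.10 ± 0.090), and for the difference of the responses to Psmg1 (0.31 ± 0.17), Psmd12 (-0.15 ± 0.14) and Psmc1 (-0.11 ± 0.12). In the 16 libraries Psmb8 was at 4.22 ± 0.863 CPM (SD, n = 4) in het control and 6.49 ± 3.13 in KO control, a log2 difference of 0.62 ± 0.26 with an unadjusted p of 0.0330 and an adjusted p of 0.892. Psmb8 had 112, 56, 90 and 66 counts in het control replicates 1 to 4. KO control replicates 1, 2, 3 and 5 had 179, 138, 58 and 64. Het control replicate 3 and KO control replicate 2 came from animals 7 and 5, which are listed under both genotypes. The stimulated levels of Psmb8 were 328 ± 17.7 and 354 ± 33.98 CPM. The responses of Psmb8 differed by -0.51 ± 0.36 (KO minus het), those of Psmb9 by 0.19 ± 0.39 and those of Psmb10 by 0.43 ± 0.22, none past the threshold (adjusted p = 1 for each). In all 20 libraries these 3 differences were -0.92 ± 1.83, -0.64 ± 2.10 and -0.26 ± 1.22. Among the 16 libraries all 10 tested leukocyte markers had lower fitted levels in KO than in het control cells. At an unadjusted p under 0.05 there were 9 (5.29% of all genes), and 0 after adjustment (edgeR). The summed leukocyte level was uneven in het control, at 89.7, 23.3, 11.7 and 336 CPM in replicates 1 to 4. In KO control it was 11.9 to 19.3 CPM. The part of the leukocyte markers in the Psmb8 values was not tested.

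Factors that work beside the proteasome were counted from separate lists. Of all genes 4.54% were called higher and 0.481% lower in 20 libraries, and 10.1% and 4.88% in 16. Of 11 regulators of proteasome genes 5 rose in 20 libraries and 8 rose and 1 fell in 16. Stat2 rose by 2.59 ± 0.60 in 20 libraries and 3.84 ± 0.15 in 16, and Irf1, known to drive the induced subunits, by 3.44 ± 0.72 and 4.99 ± 0.23. Nfe2l1 and Ddi2 were picked after their values were seen. Nfe2l1, the factor named above for the standard subunits, rose by 0.55 ± 0.14 in 16 libraries (adjusted p = 0.0158), and Ddi2, the protease that activates it, fell by 0.26 on the log2 scale. Of 14 genes of ubiquitin, ubiquitin-like modifiers and the Vcp segregase 7 rose in each set. Uba7, which activates Isg15, rose by 3.67 ± 0.16 and Isg15 by 6.11 ± 0.34 in 16 libraries. Ubd, a ubiquitin-like modifier that delivers proteins to the proteasome, was at 0 to 0.117 CPM in the 8 controls and at 19.9 to 50.2 CPM in the 8 stimulated libraries.

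Of 13 peptide-handling genes 6 rose in 20 libraries (4.54% of all genes called higher) and 7 in 16 (10.1%). The transporter Tap1 rose by 2.89 ± 0.74 and 4.68 ± 0.11, Tapbp by 2.11 ± 0.48 and 3.12 ± 0.11, and Tapbpl, which is related to Tapbp, by 2.49 ± 0.50 and 3.46 ± 0.13. Of 16 tested proteasome-bound and shuttle factors 0 passed in 20 libraries (edgeR), with 4 at an unadjusted p under 0.05 (19% of all genes). In the 16 libraries, where 10.1% of all genes were called higher, 3 factors rose. They were the proteasome inhibitor Psmf1 (0.53 ± 0.12), the ubiquitin shuttle Rad23b (0.29 ± 0.081) and the proteasome-binding protein Ecpas (0.19 ± 0.061). The 13 others did not pass.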

How the data were processed

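The 20 RNA-seq libraries were taken as labelled, 5 in each of 4 groups. The authors deposited expected counts per gene, which were whole numbers for 55891 Ensembl IDs, so rounding changed none. Salmon 1.10.2, FastQC 0.11.9, DESeq2 1.45.3, R 4.4.1 and the genome GRCm39 appear without roles in the submitters' processing notes. The strand setting and the summing of transcripts to genes: not given in the sources used here. Symbols came from GENCODE M21 and were found for 92.0% of IDs.

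The analysis used R 4.3.3. Genes were kept by filterByExpr, scaled by TMM and tested with edgeR 4.0.16 (robust quasi-likelihood, 4 group means, all 20 libraries), with Benjamini-Hochberg adjustment over all genes and a threshold of 0.05. SEs are of log2 fold changes. Pair ratios used 0.5 added counts and an exact permutation test. Named members were all catalytic, activator and maturation genes, the 4 of lowest p in each other role, and the 3 of lowest p in each comparison of genotypes. Alternatives used DESeq2 1.42.0 (size factors, test), limma-voom 3.58.1, other filters, blocks and left-out libraries. Members and lists were chosen with earlier results of these data known. Libraries of the same animal were paired in 8 animals by the labels' animal number. Correlations of their deviations ran from -0.298 to 0.623, above 0.1 in 6 of 8. The negative values were those of animals 4 (-0.206) and 8 (-0.298), and the other pairs had 0.405 to 0.623. One gene of the list of regulators is not reported here.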

Additional observations from a re-analysis of the deposited data

Results flagged for a closer look

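In 32 of 56 groups of 5 libraries checked, the gap between the highest or lowest library and its neighbour took up more of the group's range than Dixon's critical value of 0.71. Chance passes it in about 1 in 20 groups, a rate for separate groups, whereas these share genes and libraries. The libraries of animals 4 and 8 were already known to go against their labels, so the count is a description and not further evidence. All but 1 of these extreme libraries were those of animals 4 and 8: replicate 5 in het cells and replicate 4 in KO cells, high in control and low in LPS+IFNγ.

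For Psmb8 the gap was 0.981 of the range in het control, 0.878 in het LPS+IFNγ, 0.963 in KO control and 0.787 in KO LPS+IFNγ. In the same order it was 0.968, 0.813, 0.992 and 0.779 for Psmb9, and 0.922, 0.722, 0.948 and 0.880 for Psmb10. The activator Psme2 had 0.887, 0.807, 0.860 and 0.760. Psme1 passed in het control (0.716), KO control (0.908) and KO LPS+IFNγ (0.824). For Psmb6 the low library was het LPS+IFNγ replicate 5 (0.829).

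The ratio of Psmb8 to Psmb5 had gaps of 0.840 in het control, 0.930 in het LPS+IFNγ, 0.725 in KO control and 0.938 in KO LPS+IFNγ. For Psmb10 to Psmb7 they were 0.819, 0.891, 0.912 and 0.909. For Psmb9 to Psmb6 they were 0.972 in het LPS+IFNγ, 0.840 in KO control and 0.896 in KO LPS+IFNγ. The exception was Psmb5 in KO control, where replicate 5 (90.8 CPM) lay below the rest with a gap of 0.823.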

How the results depend on the processing

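The count of members called over both genotypes was 8 in 20 libraries (4.54% of all genes called higher). It was 25 without the 4 libraries of animals 4 and 8 (10.1%), and 20 without animals 4, 5, 7 and 8 (6.67%). It was 0 without animals 5 and 7 (0%), 0 with limma-voom (0%) and 5 with no filter. With the animal as a replicate block it was 0 in 20 libraries (0%) and 33 in 16 (17.3%). In het (0) it was 15 without those 4 libraries (5.67%) and 9 without animals 4, 5, 7 and 8. It was 22 with the block in 16 libraries (10.7%) and 4 with DESeq2 (2.99%). In KO (0) the values were 13 (4.81%), 9, 21 (8.39%) and 1 (0.755%). Counts and ranges in this section without a share do not show whether members changed more than all genes did. The causes were not tested. Leaving out 1 library gave 5 to 20 over both genotypes, 0 to 9 in het, 0 to 1 in KO and 0 in the other comparisons. In 16 libraries, with alternatives chosen after seeing the data, it gave 20 to 25, 11 to 18 and 9 to 15, and the block gave 21 in KO. A block on the replicate number, which pairs no samples across genotypes, left 0 calls between KO and het.

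The pair ratios lost their calls with a pseudocount of 0.1: 3.96 and 3.66 (het and KO) for Psmb8, 4.62 and 4.60 for Psmb9, 2.46 and 2.76 for Psmb10. They also did so without animals 5 and 7 (3.53 and 3.16, 3.96 and 3.76, 2.20 and 2.40). Paired by animal as a block the values were the same, but that design could not pass (smallest p 0.125). Leaving out 1 library gave 3.53 to 5.37 and 3.19 to 4.81, 4.02 to 6.18 and 4.07 to 6.08, and 2.22 to 3.24 and 2.47 to 3.62.

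The log2 fold change of Psme3, LPS+IFNg against control over both genotypes, was not called and changed sign: -0.0186 without animals 5 and 7, -0.0177 without animals 4, 5, 7 and 8, -0.0012 with the block, -0.0046 with DESeq2, -0.00048 with limma-voom, -0.0042 with DESeq2 size factors, -0.0149 unfiltered and -0.0049 with a CPM of at least 1 in 10 libraries. Leaving out 1 library gave -0.042 to 0.030 for Psme3 and -0.0085 to 0.063 for Psmb5. Of 1080 such fold changes 996 kept their direction and call, 14 changed sign, 29 gained a call and 41 lost one. Of the 54 fold changes behind them 8 were called in the main fit. Most of the 996 were therefore not called in either fit. DESeq2 gave no p for 3 members in 20 libraries. The resting level of Psmb9 rests on 4 to 24 counts per library.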

Other observations

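The core subunits known from other tissues were near zero in these cultures. Psma8, the alpha subunit of the testis, was at 0 to 0.259 CPM (0 to 5 counts) and Psmb11, the catalytic subunit of the thymic cortex, at 0 to 0.120 CPM (0 to 2 counts) over the 20 libraries. At these counts no comparison between groups was made.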
